A study of Homo sapiens with 24 samples.

Results

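Binding of S100A8-Flag and S100A9-Flag was examined at 10 genes that restrain signaling through extracellular signal-regulated kinase (ERK) and related kinases. These are the phosphatase genes DUSP1, DUSP4, DUSP5, DUSP6, and DUSP10, the Sprouty genes SPRY1, SPRY2, and SPRY4, and the Sprouty-related genes SPRED1 and SPRED2. They were chosen by name from the 20098 protein-coding genes annotated on chromosomes 1 to 22 and X of hg19 (GENCODE 44), by their function and not by a threshold on a measured value. Flag chromatin immunoprecipitation sequencing (ChIP-seq) was done in MCF-10A cells, a nontransformed human breast epithelial line. The cells express ER-Src, which joins the v-Src oncoprotein to the ligand-binding domain of the estrogen receptor, so that an estrogen receptor ligand switches v-Src on. All 4 groups carry ER-Src and 1 tagged protein, introduced with a retroviral vector and kept as a drug-selected pool of cells. Cells with S100A8-Flag were given ethanol (EtOH, 2 libraries) or 1 μM 4-hydroxytamoxifen (TAM, 3 libraries) for 24 hours. Cells with S100A9-Flag were given EtOH (3 libraries) or TAM (3 libraries) for the same time. The libraries of a group are labeled as replicates, which the methods of the study call biological, and p values measure only the spread between them.

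S100A8 and S100A9 are calcium-binding proteins known as secreted cytokines, and they also occur in the nucleus. When growth factor receptors or Src drive Ras, Raf, MEK, and ERK, the active kinases induce genes for their own inhibitors. The DUSP proteins remove phosphate from both the threonine and the tyrosine of an active MAP kinase, and each prefers certain kinases and sits mostly in the nucleus or the cytoplasm. Sprouty and Spred proteins act higher in the pathway, at the membrane, where they limit the activation of Ras and Raf. The unit of measurement here is the peak, as the authors called it in each library against its own chromatin input. Peaks with q ≤ 1e-07 were used, where q is the p value corrected for multiple testing by the peak caller. EtOH libraries had 1853 to 4609 such peaks and TAM libraries 21518 to 40735. The lists hold no read numbers, so that sequencing depth is unknown. The paper reports that nuclear levels of the tagged proteins rose strongly during transformation. Fewer peaks from lower depth, from less tagged protein in the nucleus, and from weaker binding cannot be told apart.

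All 10 genes had a promoter peak in at least 1 library, and 4 of them (DUSP1, DUSP6, DUSP10, and SPRED1) had one in each of the 11 libraries. A promoter peak has its summit no more than 1500 bp before or 250 bp after a transcription start site (TSS) of a protein-coding transcript. Of all 20098 genes, 12103 (60.2%) had a promoter peak in at least 1 library and 97 (0.483%) had one in every library. In EtOH alone, 114 of all genes had a promoter peak in every library, and the same 4 genes were the only ones among the 10. SPRY4 had a promoter peak in 4 of 5 EtOH libraries, DUSP4 and SPRED2 in 3, DUSP5 and SPRY2 in 2, and SPRY1 in 1. In TAM, 9 of the genes had a promoter peak in 6 of 6 libraries, and DUSP5 had one in 4. When the promoter was cut to 500 bp upstream, no member and 79 of all genes had a peak in every library, and DUSP1 was called in 10 libraries (4 EtOH and 6 TAM), DUSP6 in 8 (3 EtOH and 5 TAM), DUSP10 in 6 (2 EtOH and 4 TAM), and SPRED1 in 1 (TAM). With only the 5 prime end of each gene as its TSS, 3 members (DUSP1, DUSP10, and SPRED1) and 58 of all genes had a promoter peak in every library. DUSP6, which has 4 TSSs, was not among them. With q ≤ 1e-10, DUSP10 and 15 of all genes had a promoter peak in every library. With every peak as deposited (q ≤ 0.05), each member except SPRY1 did, as did 1686 of all genes. The share of libraries with a promoter peak was compared between TAM and EtOH by an exact permutation test over libraries within each protein, two-sided, where the smallest p that the 200 arrangements allow is 0.01. Of 10647 genes tested, 0 (0%) passed an adjusted p of 0.05, no member among them, and 2230 had an unadjusted p under 0.05. The smallest p was reached by 561 genes, too few for any gene to pass the adjustment, so that this 0 cannot show unchanged promoters. The member with the lowest p was SPRY1, whose share of libraries was higher in TAM by 0.833 (exact permutation test, p = 0.04, adjusted p = 0.191).

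**Figure D1:**
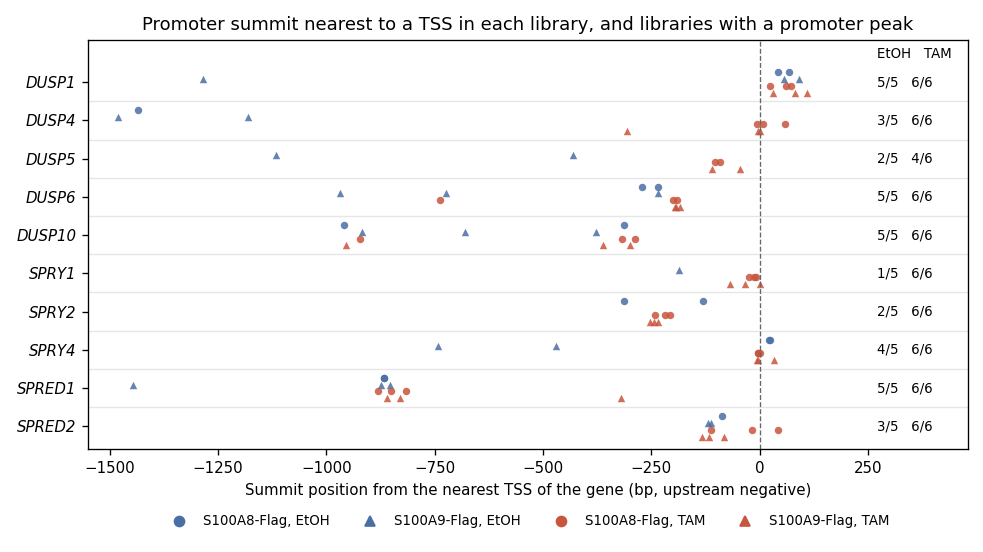
Each point is the promoter summit nearest to a TSS of the gene in 1 library, with its distance from that TSS in bp on the x axis (upstream negative), and the numbers on the right give the libraries with a promoter peak out of 5 in EtOH and 6 in TAM. SPRED1 summits gather around −859 bp in both treatments. From the nearest of its 2 TSSs, DUSP4 summits lie between −1481 and −1180 bp in EtOH and between −307 and 59 bp in TAM, and these distances can be from different TSSs.

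The summits show where in each promoter the peaks lay. Each distance is from the nearest TSS of the gene, so that distances at a gene with several TSSs can refer to different ones. At DUSP1, the summit nearest to the TSS was between 23 and 110 bp in 10 libraries and at −1285 bp in replicate 3 of S100A9-Flag in EtOH. SPRED1 summits were far from the TSS and close to each other, with a median of −859 bp over the 11 libraries. The exceptions were −1445 bp in replicate 1 of S100A9-Flag in EtOH and −321 bp in replicate 1 of S100A9-Flag in TAM. At DUSP6, which has 4 TSSs, the distances ranged from −968 to −234 bp in EtOH and from −737 to −184 bp in TAM, and a summit upstream of 1 TSS can lie inside the gene. DUSP10 summits fell into 2 stretches in both treatments, 1 between −377 and −287 bp and the other between −960 and −679 bp. At DUSP4, which has 2 TSSs, the 3 EtOH distances were −1481, −1435, and −1180 bp and the 6 TAM distances −307 to 59 bp. As these can be from different TSSs, they do not order the DUSP4 summits along the gene. At DUSP5, which has 1 TSS, the 2 EtOH summits at −1115 and −431 bp were farther upstream than the 4 TAM summits from −111 to −46 bp. No test was made of summit positions. The summit nearest to a TSS can be nearer where a library has more promoter peaks, and TAM libraries had a mean of 17.7 promoter peaks at the 10 genes and EtOH libraries 8.2.

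The sequences at the summits of these promoter sites are shown because the binding is described by position. Here a site is a region called in at least 2 replicates of a group and merged over the groups. For 9 of the genes, the summit of a promoter site and the 50 bp on either side of it are printed, on the strand of the gene and from the hg19 (GRCh37) genome. Bases of untranslated regions were removed, which shortened the DUSP5 and SPRY1 sequences. The site at the DUSP1 TSS lies over an untranslated region, and its upstream promoter site is given in its place. Capitals mark exact matches, on either strand, to the motifs of AP-1 (TGAGTCA or TGACTCA), ETS factors (CGGAAG), CREB (TGACGTCA), KLF/SP1 (CCCCGCCC), CEBP (TTACNNAA or TTGCNNAA), STAT (TTCNNNGAA), and the CArG box of serum response factor.
DUSP1 upstream promoter site, chr5:172199487-172199587, minus strand: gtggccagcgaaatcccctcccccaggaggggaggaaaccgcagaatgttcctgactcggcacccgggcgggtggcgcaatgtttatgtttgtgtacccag
DUSP5 promoter site, chr10:112257569-112257664, plus strand: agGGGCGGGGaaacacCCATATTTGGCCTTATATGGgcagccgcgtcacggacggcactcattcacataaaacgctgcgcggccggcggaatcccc
DUSP6 promoter site, chr12:89746462-89746562, minus strand: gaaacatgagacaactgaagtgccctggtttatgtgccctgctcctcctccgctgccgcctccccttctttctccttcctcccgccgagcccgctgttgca
DUSP10 promoter site, chr1:221916286-221916386, minus strand: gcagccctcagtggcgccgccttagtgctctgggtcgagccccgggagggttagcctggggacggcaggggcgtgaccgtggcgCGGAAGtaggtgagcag
SPRY1 promoter site, chr4:124317875-124317949, plus strand: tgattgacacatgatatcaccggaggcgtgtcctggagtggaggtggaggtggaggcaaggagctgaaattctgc
SPRY2 promoter site, chr13:80915341-80915441, minus strand: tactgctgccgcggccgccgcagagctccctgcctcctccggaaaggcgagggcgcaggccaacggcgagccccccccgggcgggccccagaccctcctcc
SPRY4 promoter site, chr5:141705295-141705395, minus strand: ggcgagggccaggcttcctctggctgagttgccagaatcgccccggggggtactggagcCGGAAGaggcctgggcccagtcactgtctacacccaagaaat
SPRED1 promoter site, chr15:38544128-38544228, plus strand: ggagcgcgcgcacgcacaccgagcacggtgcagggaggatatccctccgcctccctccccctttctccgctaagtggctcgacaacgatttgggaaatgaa
SPRED2 promoter site, chr2:65659804-65659904, minus strand: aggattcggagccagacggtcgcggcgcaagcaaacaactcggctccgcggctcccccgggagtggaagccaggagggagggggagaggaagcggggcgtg

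A match is only a match of letters. In these 9 windows, CGGAAG was found at DUSP10 and SPRY4, and DUSP5 held a KLF/SP1 match and a pair of CArG boxes end to end. The other 6 windows had no match to any of the 7 motifs. Of all promoter sites, 17.3% held the ETS motif in a window of this size, 13.4% the KLF/SP1 motif, and 0.233% a CArG box.

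Among the nuclear phosphatases, DUSP1 stood out by its number of peaks. DUSP1 (ENSG00000120129, chromosome 5, 172195099 to 172198198, minus strand) encodes an inducible phosphatase that acts on p38, JNK, and ERK. In or within 50 kb of it, there were 3 and 3 peaks in S100A8-Flag EtOH, 16, 14, and 15 in S100A8-Flag TAM, 3, 3, and 4 in S100A9-Flag EtOH, and 19, 17, and 23 in S100A9-Flag TAM. Every TAM library was above every EtOH library. The mean was 3.2 ± 0.447 peaks in EtOH (SD, n = 5) and 17.3 ± 3.27 in TAM (SD, n = 6). On the log2(peaks + 1) scale, TAM was higher by 2.12 (two-sided exact permutation test, p = 0.01, adjusted p = 0.0219 over all genes tested).

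DUSP4 (ENSG00000120875, chromosome 8, 29190581 to 29208201, minus strand) encodes a nuclear phosphatase for ERK and JNK. It had 0 and 1 peaks in S100A8-Flag EtOH, 6, 4, and 2 in S100A8-Flag TAM, 0, 1, and 2 in S100A9-Flag EtOH, and 3, 3, and 6 in S100A9-Flag TAM. The treatments touched at 2 peaks, and the log2 difference was 1.57 (exact permutation test, p = 0.01, adjusted p = 0.0219). DUSP5 (ENSG00000138166, chromosome 10, 112257665 to 112271291, plus strand) encodes a nuclear phosphatase for ERK. Its peaks numbered 0 and 0 in S100A8-Flag EtOH, 4, 6, and 1 in S100A8-Flag TAM, 1, 0, and 1 in S100A9-Flag EtOH, and 4, 1, and 4 in S100A9-Flag TAM. Replicate 3 of S100A8-Flag and replicate 2 of S100A9-Flag in TAM were no higher than the highest EtOH libraries. The log2 difference was 1.63 (exact permutation test, p = 0.03, adjusted p = 0.0443), and the call was lost in 10 of the 11 fits that left out 1 library.

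The other phosphatase genes are DUSP6 and DUSP10. DUSP6 (ENSG00000139318, chromosome 12, 89741012 to 89746278, minus strand) encodes the cytoplasmic phosphatase for ERK and is widely used as a readout of ERK activity. It had 2 and 1 peaks in S100A8-Flag EtOH, 4, 3, and 2 in S100A8-Flag TAM, 1, 2, and 1 in S100A9-Flag EtOH, and 4, 2, and 6 in S100A9-Flag TAM. Its log2 difference of 0.86 was the smallest of the 10 genes and missed the threshold (exact permutation test, p = 0.04, adjusted p = 0.0552). DUSP10 (ENSG00000143507, chromosome 1, 221874766 to 221915431, minus strand) encodes a phosphatase that prefers p38 and JNK. It had 1 and 2 peaks in S100A8-Flag EtOH, 6, 4, and 3 in S100A8-Flag TAM, 1, 1, and 1 in S100A9-Flag EtOH, and 3, 5, and 5 in S100A9-Flag TAM. Every TAM library was above every EtOH library, and the log2 difference was 1.24 (exact permutation test, p = 0.01, adjusted p = 0.0219).

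All 3 Sprouty genes, whose proteins inhibit signaling from receptor tyrosine kinases, had more peaks in TAM. SPRY1 (ENSG00000164056, chromosome 4, 124317950 to 124324915, plus strand) had 0 and 0 peaks in S100A8-Flag EtOH, 2, 5, and 3 in S100A8-Flag TAM, 0, 0, and 1 in S100A9-Flag EtOH, and 3, 4, and 5 in S100A9-Flag TAM. The treatments did not overlap, and its log2 difference of 2.01 was second to that of DUSP1 (exact permutation test, p = 0.01, adjusted p = 0.0219). SPRY2 (ENSG00000136158, chromosome 13, 80910111 to 80915261, minus strand) had 2 and 3 peaks in S100A8-Flag EtOH, 4, 5, and 3 in S100A8-Flag TAM, 0, 1, and 1 in S100A9-Flag EtOH, and 2, 3, and 5 in S100A9-Flag TAM. Within each protein, the lowest TAM library was level with or above the highest EtOH library. The log2 difference was 0.95 (exact permutation test, p = 0.02, adjusted p = 0.0352), and the call was lost in 9 of 11 fits that left out 1 library. SPRY4 (ENSG00000187678, chromosome 5, 141689992 to 141706020, minus strand) had 2 and 2 peaks in S100A8-Flag EtOH, 8, 6, and 7 in S100A8-Flag TAM, 3, 0, and 2 in S100A9-Flag EtOH, and 5, 5, and 8 in S100A9-Flag TAM. Every TAM library was above every EtOH library, and the log2 difference was 1.50 (exact permutation test, p = 0.01, adjusted p = 0.0219).

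Of the SPRED genes, SPRED2 passed the threshold and SPRED1 did not, and the difference between them was not tested. SPRED2 (ENSG00000198369, chromosome 2, 65537985 to 65659771, minus strand), which like SPRED1 encodes an inhibitor that joins the Ras regulator neurofibromin to the membrane, had 3 and 1 peaks in S100A8-Flag EtOH, 8, 7, and 7 in S100A8-Flag TAM, 1, 1, and 3 in S100A9-Flag EtOH, and 8, 6, and 7 in S100A9-Flag TAM. No TAM library was below 6 and no EtOH library above 3, with a log2 difference of 1.61 (exact permutation test, p = 0.01, adjusted p = 0.0219). SPRED1 (ENSG00000166068, chromosome 15, 38545037 to 38649450, plus strand) had exactly 1 peak in each of the 5 EtOH libraries, which was its promoter peak. In TAM it had 2, 4, and 4 peaks with S100A8-Flag and 4, 1, and 5 with S100A9-Flag. The log2 difference was 1.02 (exact permutation test, p = 0.04, adjusted p = 0.0552), which missed the threshold. Without replicate 2 of S100A9-Flag in TAM, the library with 1 peak, the log2 difference was 1.26 and passed it (adjusted p over the fits without 1 library, 0.0398 to 0.129).

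**Figure D2:**
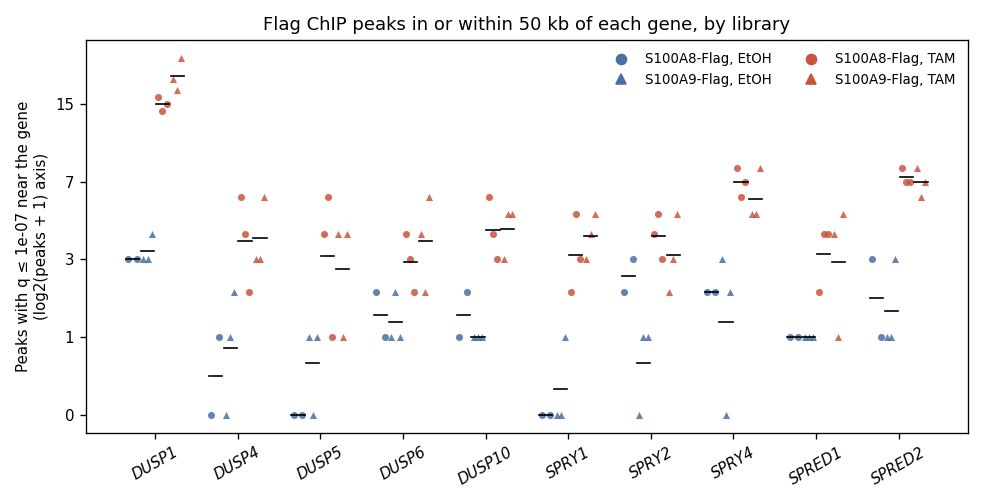
Points are the peaks with q ≤ 1e-07 in or within 50 kb of each gene in single libraries, on a log2(peaks + 1) axis labeled in peaks, and black lines are group means on that scale. DUSP1 reaches 14 to 23 peaks in TAM, and no other gene exceeds 8.

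In all, 8 of the 10 genes had more peaks near them in TAM after adjustment over the 18126 genes tested, and none had fewer. This number is read against a background of 12262 genes (67.6%) with more peaks in TAM by the same rule. The TAM libraries were all above the EtOH libraries at 5 of the 10 genes (DUSP1, DUSP10, SPRY1, SPRY4, and SPRED2), compared with 7284 of all genes tested (40.2%). The median log2 difference was 1.53 for the 10 genes and 1.39 for all genes tested. The shares of genes called and the medians were therefore close to those of all genes. When only summits inside the gene body were counted, 0 of 11877 genes tested were called, and 4002 of them, 5 members included, had an unadjusted p under 0.05. There, even the smallest possible p (exact permutation test, p = 0.01) gave an adjusted p of 0.0699, so that no gene could be called.

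S100A9-Flag and S100A8-Flag were then compared over both treatments, by the same exact permutation test. None of the 10 genes passed the adjusted threshold, nor did any of the 18126 genes tested (0%). An unadjusted p under 0.05 was found for 147 genes, no member among them. Because p cannot be smaller than 0.01, a gene can pass only if many genes reach such a p. Here 20 genes reached the smallest p, too few for any gene to pass however large its difference. DUSP1 had the lowest p, with S100A9-Flag higher by 0.23 on the log2 scale (exact permutation test, p = 0.06, adjusted p = 1). At SPRY2, S100A9-Flag was lower, with a log2 difference of −0.69 (exact permutation test, p = 0.07, adjusted p = 1). This value was −0.27 with every peak as deposited, −0.15 with q ≤ 1e-10, and 0.10 with equal numbers of peaks. Among the peaks counted at SPRY2, those in the promoter were present in 2 of 2 EtOH libraries with S100A8-Flag, in 0 of 3 with S100A9-Flag, and in all 6 TAM libraries, whereas with every peak as deposited the promoter had a peak in all 11 libraries. The TAM effect was also compared between the proteins, and again 0 of 18126 genes (0%) passed, with 414 genes and no member at an unadjusted p under 0.05. The smallest p was reached by 32 genes, again too few for any gene to pass. For DUSP1, the TAM effect on the log2 scale was 2.00 with S100A8-Flag and 2.25 with S100A9-Flag, and for SPRY2 it was 0.51 and 1.39. A p above the threshold does not show that the proteins bind alike.

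The gain in TAM lay mostly outside the promoters of the 10 genes. EtOH libraries had 13.2 ± 2.77 peaks near the genes (SD, n = 5), of which 8.2 ± 1.3 were in their promoters and 5 ± 2 elsewhere. TAM libraries had 56.8 ± 10 such peaks (SD, n = 6), with 17.7 ± 3.39 in promoters and 39.2 ± 8.3 elsewhere. Promoter peaks thus made up 63.0 ± 8.01% of the peaks near the genes in EtOH and 31.2 ± 5.37% in TAM, and the ranges (52.9 to 71.4% and 23.4 to 38.3%) did not overlap. Of all peaks of a library, 49.6 ± 4.43% lay in a promoter of any protein-coding gene in EtOH and 30.3 ± 2.07% in TAM. The promoter share near the 10 genes was above that of all peaks in EtOH and close to it in TAM, a difference that was not tested. The bases of these shares are unlike, because all peaks include those more than 50 kb from any gene.

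**Figure D3:**
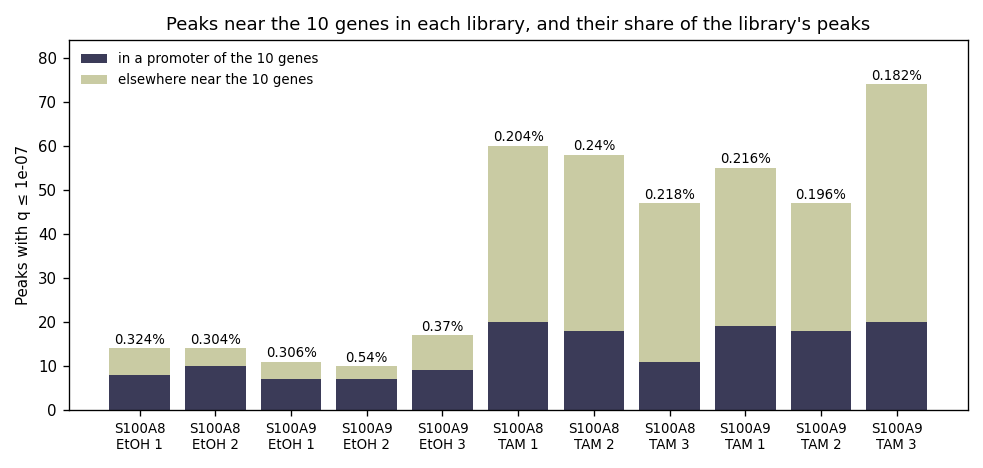
Bars give the peaks with q ≤ 1e-07 near the 10 genes in each library, split into promoter peaks and others, and the label above a bar is their share of all peaks of that library. The 5 EtOH libraries have 10 to 17 peaks and shares of 0.304 to 0.54%, and the 6 TAM libraries have 47 to 74 peaks and shares of 0.182 to 0.24%.

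As a share of a library's own peaks, those near the 10 genes went down with TAM. They made up 0.369 ± 0.0993% of the peaks in EtOH (SD, n = 5) and 0.209 ± 0.0201% in TAM (SD, n = 6), and every EtOH library (0.304 to 0.54%) was above every TAM library (0.182 to 0.24%). The highest value was that of replicate 2 of S100A9-Flag in EtOH, which had the fewest peaks. The comparison was therefore repeated with the same number of peaks in each library, the 1853 with the lowest q values. With these, 0 of 9100 genes (0%) were called between TAM and EtOH, and 153 had an unadjusted p under 0.05. The smallest possible p was reached by 15 genes, too few for any gene to pass the adjustment. EtOH libraries had 8.8 ± 1.3 top peaks near the 10 genes and TAM libraries 8.0 ± 1.55. The log2 difference was below 0 at 6 of the 9 members tested (DUSP4, DUSP6, DUSP10, SPRY2, SPRED1, and SPRED2), 0 at SPRY1, and above 0 at DUSP1 and SPRY4. The median of the 9 was −0.33, and that of all genes tested was 0.

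Of the members, DUSP1 had the lowest p at equal numbers of peaks, and no member was called. Among the top 1853 peaks, it had 1 and 1 in S100A8-Flag EtOH, 5, 2, and 3 in S100A8-Flag TAM, 3, 3, and 3 in S100A9-Flag EtOH, and 4, 5, and 4 in S100A9-Flag TAM. Within each protein, every TAM library was above every EtOH library, and the log2 difference was 0.73 (exact permutation test, p = 0.01, the smallest possible, adjusted p = 1). DUSP6 was at the other end, with 4 top peaks summed over the EtOH libraries and 0 over the TAM libraries (log2 difference −0.68, exact permutation test, p = 0.16). SPRY2 had 4 and 1 in the same sums (log2 difference −0.56), and DUSP5 had too few to be tested. The top peaks included a promoter peak of 4.8 ± 1.1 of the 10 genes in EtOH libraries and of 2.83 ± 0.983 in TAM libraries. At DUSP10, the promoter was among the top peaks in 5 of 5 EtOH and 3 of 6 TAM libraries, and at DUSP1 in 4 of 5 and 6 of 6.

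**Figure D4:**
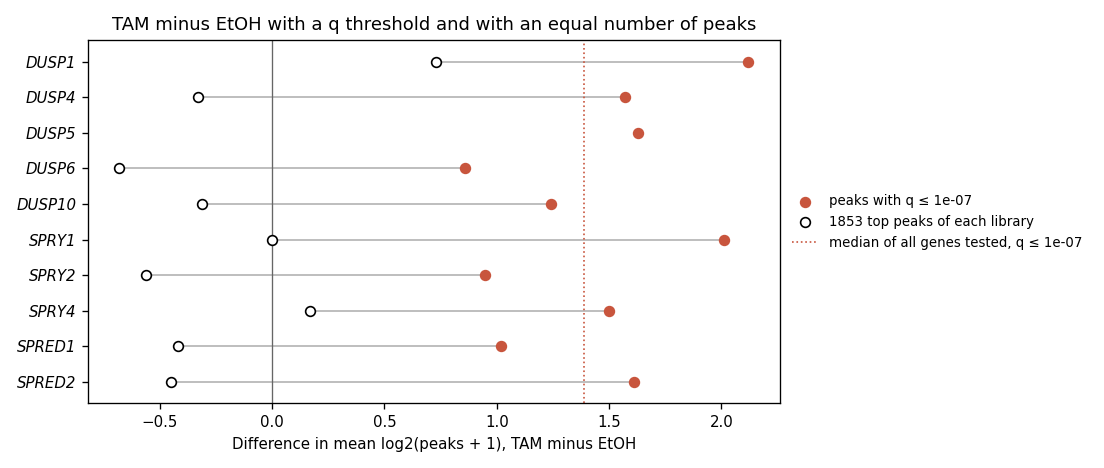
For each gene, filled points give the difference in mean log2(peaks + 1) between TAM and EtOH for peaks with q ≤ 1e-07 and open points the same for the 1853 top peaks of each library, with the median of all genes tested (1.39) as a dotted line. Filled points lie between 0.86 and 2.12, and 6 of the 9 open points lie below 0.

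Of the 30322 sites found over the 4 groups, 55 were at the 10 genes. DUSP1 had 17 of them, SPRY4 had 7, SPRED2 had 6, DUSP4, DUSP6, DUSP10, and SPRED1 had 4 each, and DUSP5, SPRY1, and SPRY2 had 3 each. The median over all protein-coding genes was 3, and 0.289% of them had at least 17. Per length, DUSP1 had 16.5 sites in 100 kb, a density reached by 0.0547% of all genes. By position, 16 of the 55 sites were in promoters of the 10 genes and 39 elsewhere, and 41 were intergenic, 11 intronic, and 3 exonic. Only 3 sites were nearer to the TSS of another gene, 2 of them in the DUSP1 window (ERGIC1) and 1 in the DUSP4 window (KIF13B).

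**Figure D5:**
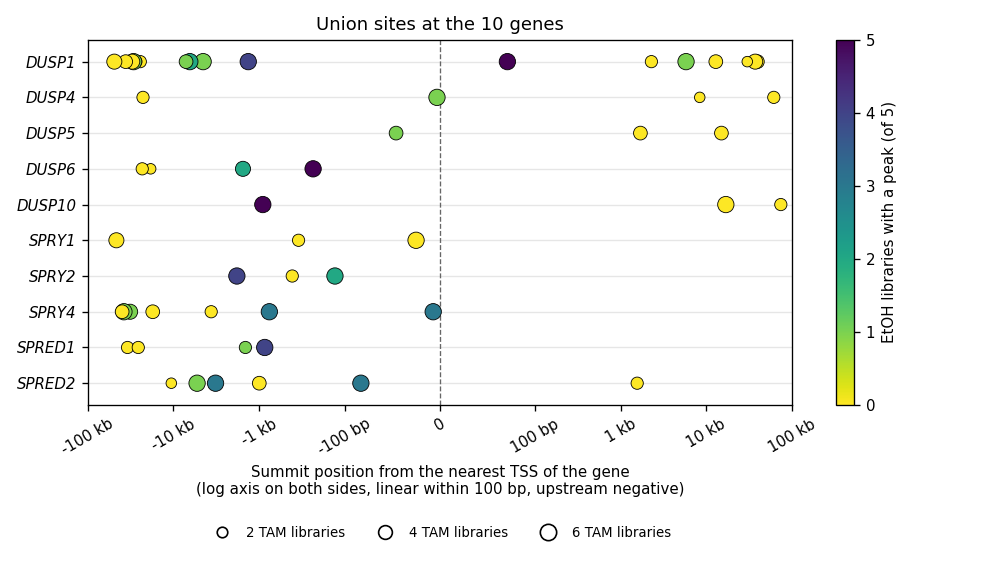
Each circle is 1 of the 55 sites, placed by the distance of its summit from the nearest TSS of the gene on a log axis on both sides (linear within 100 bp), with its size set by the TAM libraries and its color by the EtOH libraries that called it. Dark circles, called in 3 to 5 EtOH libraries, lie within 3226 bp of a TSS, and the pale ones at greater distances were called in 0 to 2.

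A larger share of the promoter sites than of the others was called in EtOH, a difference that was not tested. At least 1 EtOH library called 23 of the 55 sites (41.8%), compared with 31.1% of all 30322 sites. By position this was 12 of the 16 promoter sites (75%, and 49.7% of all promoter sites) and 11 of the 39 others (28.2%, and 22.7% of all others). None of the 55 sites was without a call in TAM, compared with 28 of all sites, and 20 were called in all 6 TAM libraries, compared with 4326 of all 30322. Overlapping peaks in at least 2 replicates of the group were found at 7 sites in S100A8-Flag EtOH and 6 in S100A9-Flag EtOH. In TAM these were 44 with S100A8-Flag and 45 with S100A9-Flag. The same counts were not made over all sites, so that they cannot show whether the 10 genes differ from others. At the 49 sites with a call by both proteins, the S100A8-Flag and S100A9-Flag summits lay a median of 28 bp apart.

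The sites called in all 11 libraries were 3 in number, compared with 105 of all sites (0.346%). They span the TSSs of DUSP1 (172196455 to 172198710), DUSP6 (89745355 to 89746928), and DUSP10 (221915014 to 221916937), with summits at 71 bp in the 5 prime untranslated region of DUSP1, at −234 bp of DUSP6, and at −905 bp of DUSP10. A library calls a site if any of its peaks overlaps the region, wherever the summit of that peak lies. At this DUSP1 site, the fold enrichment over input was 7.09 and 8.01 in S100A8-Flag EtOH, 24.6, 7.88, and 7.28 in S100A8-Flag TAM, 10.6, 11.3, and 9.87 in S100A9-Flag EtOH, and 19.3, 9.5, and 9.61 in S100A9-Flag TAM. In replicate 3 of S100A9-Flag in EtOH, the 9.87 came from a peak whose summit lay more than 250 bp downstream of the TSS. The medians were 9.87 in EtOH, which is that same value, and 9.56 in TAM, and the ranges overlapped. At the DUSP6 site, the medians were 7.87 and 7.41, and the ranges overlapped. The DUSP10 site had medians of 8.44 and 11.9, with its highest fold enrichment (25) in replicate 3 of S100A9-Flag in TAM.

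Further sites of DUSP1, SPRY2, and SPRED1 were called in 10 libraries each. The second promoter site of DUSP1, at −1339 bp, was called in 4 EtOH and 6 TAM libraries. Its fold enrichment in TAM (11.8 to 21.9) was above that of the 4 EtOH libraries that called it (7.91 to 9.86). The SPRY2 site at −1818 bp lies just outside the promoter window. It was called in both S100A8-Flag EtOH libraries, in 2 of 3 S100A9-Flag EtOH libraries, and in all 6 TAM libraries, with a fold enrichment of 7.87 to 15.7 in TAM. The SPRED1 site at −859 bp was called in 4 EtOH and 6 TAM libraries, with fold enrichments of 6.66 to 13.6 and 7.39 to 22.2. These fold enrichments are each library's own ratio to its input and were not tested between libraries.

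Of the 55 sites, 2 were called in all TAM libraries and in no EtOH library, a share close to that of all sites (1421, or 4.69%). They are the site at −25 bp of SPRY1 (124317734 to 124318059), with a fold enrichment of 5.92 to 12.3 in TAM, and a site in an intron of DUSP10, at 16958 bp (221898362 to 221898569), with 5.93 to 9.83. Among the sites outside promoters that were called most often were SPRED2 at −3226 bp (3 EtOH and 6 TAM libraries), DUSP1 at −6444 bp (2 and 6), DUSP6 at −1543 bp (2 and 5), DUSP1 at 5815 bp (1 and 6), and SPRY4 at −37912 bp (1 and 6).

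The motifs are given by the position of the sites. Within 100 bp of the summit, an AP-1 match was found at 0 of the 16 promoter sites (6.38% of all promoter sites) and at 15 of the 39 others (38.5%, and 34.6% of all others). ETS was found at 3 of the 16 promoter sites (18.8%, and 27.1% of all promoter sites) and KLF/SP1 at 4 (25%, and 24.5%). Outside promoters, ETS was found at 3 of the 39 sites (7.69%, and 7% of all others) and KLF/SP1 at 4 (10.3%, and 4.2%). Within 50 bp of the summit, KLF/SP1 was found at 1 of the 16 promoter sites (6.25%, and 13.4% of all promoter sites) and at 0 of the 39 others. CEBP was found within 100 bp at 2 of the 16 promoter sites (12.5%, and 7.72% of all promoter sites) and at 10 of the 39 others (25.6%, and 21% of all others). STAT was found at 2 promoter sites (12.5%, and 4.06%) and at 2 others (5.13%, and 6.42%). Neither was found at a promoter site of the 10 genes within 50 bp. Within 100 bp, the CArG box was found at 1 promoter site, that of DUSP5 (0.53% of all promoter sites), and CREB at none of the 55. The sequences of 3 sites outside promoters are shown because they hold the AP-1 match. They were picked after their values were seen and are named by the distance of the summit from the TSS, which is 16958 bp for DUSP10, −37912 bp for SPRY4, and 15061 bp for DUSP5. Within 50 bp of the summit, as printed here, 26% of all sites outside promoters held an AP-1 match. Capitals mark the same motifs.
DUSP10 intronic site, chr1:221898423-221898523, minus strand: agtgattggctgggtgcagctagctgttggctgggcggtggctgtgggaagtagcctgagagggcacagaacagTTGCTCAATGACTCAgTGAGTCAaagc
SPRY4 intergenic site, chr5:141742448-141742548, minus strand: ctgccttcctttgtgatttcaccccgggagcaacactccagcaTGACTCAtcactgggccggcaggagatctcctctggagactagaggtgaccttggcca
DUSP5 downstream site, chr10:112272676-112272776, plus strand: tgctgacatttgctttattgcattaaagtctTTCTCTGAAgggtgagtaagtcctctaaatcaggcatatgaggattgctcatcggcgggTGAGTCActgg

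In the DUSP10 intron, AP-1 matches in both orientations lie close together at the end of the window, and the first of them touches a CEBP match. The SPRY4 window holds 1 AP-1 match near its center and was called in 1 EtOH and 6 TAM libraries. The DUSP5 window, called in 4 TAM libraries, holds an AP-1 match and a STAT match.

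Other genes of the pathway were set beside the 10 by lists that were chosen with earlier results of these data known. Of 7 paralogs of the phosphatases and of the Sprouty and Spred genes, 6 could be tested and 4 had more peaks in TAM (DUSP7, DUSP8, DUSP16, and SPRED3, with log2 differences of 1.97, 1.64, 1.62, and 1.74, each with an adjusted p of 0.0219 from the exact permutation test). Of 12 genes of the cascade from GRB2 to ERK, 11 had more peaks in TAM, with the largest log2 differences at HRAS (2.24), GRB2 (2.17), ARAF (2.17), and MAP2K2 (1.92). All 8 genes that are known outputs of ERK had more peaks in TAM, among them FOS (2.53), PHLDA1 (2.07), IER3 (1.83), and ETV4 (1.72). By the same rule, 67.6% of all genes tested had more peaks in TAM. The medians of the lists were 1.63, 1.53, and 1.60, compared with 1.53 for the 10 genes and 1.39 for all genes tested. No gene of these 3 lists had a promoter peak in every library, whereas 4 of the 10 feedback genes did, a difference between lists that was not tested. FOS had a promoter peak in 0 of 5 EtOH and 6 of 6 TAM libraries, and PHLDA1 showed the same numbers.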

How the data were processed

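Flag ChIP-seq peak lists of 11 libraries were used, and the chromatin input and Pol II samples were not analysed here. Per the labels and methods, the authors aligned reads to hg19 with Bowtie2, kept those with 1 position, and ran MACS2 on every library by itself, with its own input as the control, to find narrow peaks. Tool versions are not given in the sources used here. The deposited −log10 q value and fold enrichment (a ratio to input) of each peak are the authors' own, as are its signal-based score and −log10 p value, which were not used. The lists reach down to q = 0.05 and give no depth. On chromosomes 1 to 22 and X, summits of peaks with q ≤ 1e-07 in a gene body or within 50 kb were counted per gene (GENCODE 44 lifted to GRCh37). Libraries were permuted exactly within strata of the other factor, two-sided by doubling the smaller tail, on log2(peaks + 1), for every gene with a peak in at least 2 libraries. The p values were adjusted by the Benjamini-Hochberg method over all genes tested. Sites are regions called in at least 2 replicates of a group, merged at 1 bp. The calculations were checked on simulated data and used Python 3.11.15, numpy 2.4.6, and pandas 2.3.3.

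The members and lists were chosen with earlier results of these data known. Named were all 10 members, their promoter sites, their 2 other sites called in the most libraries, and at most 4 genes of each other list, by lowest p and then largest difference. Alternatives were other q thresholds, equal numbers of peaks, other windows, promoters, and site criteria, the number of peaks without log2, a motif window of 50 bp, and the omission of each library.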

Additional observations from a re-analysis of the deposited data

How the results depend on the processing

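The lists give peaks and not reads, so that a missing peak does not show absent binding. Depth and the amount of tagged protein in the nucleus limit every comparison of EtOH with TAM in a way that cannot be measured here. With 1853 top peaks per library, 0 members (against 8) and 0 genes (against 12262) had more peaks in TAM, 0 members had a promoter peak in every library, and 13 sites lay at the 10 genes, 10 of them called in EtOH. The difference in the share of peaks near the genes, averaged over both proteins, moved from −0.15 to −0.036 percentage points. The log2 difference turned negative at DUSP4 (−0.33), DUSP6 (−0.68), DUSP10 (−0.31), SPRY2 (−0.56), SPRED1 (−0.42), and SPRED2 (−0.45), and SPRY2 turned to 0.10 for S100A9-Flag minus S100A8-Flag. The construction of this setting removes the difference in the number of peaks.

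With q ≤ 1e-10, 4 members and 6887 genes were called, 1 member had a promoter peak in every library, 14 sites were called in EtOH, and the share difference was −0.309. With every peak as deposited, 9 members had a promoter peak in every library, 84 sites were found with 55 called in EtOH, and the share difference was −0.0608. With the gene body alone, 0 members and 0 genes were called and the share difference was −0.0417. With promoters from 500 bp upstream, 0 members had a peak in every library. With a motif window of 50 bp, the share of promoter sites with KLF/SP1 moved from 25 to 6.25%. With at least 1 or every replicate required, 104 and 29 sites were found. The cause of the changes was not tested for these settings or for the equal numbers of peaks.

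Whether libraries with the same replicate number were prepared together is not known. Deviations of same-numbered libraries from their group means correlated between −0.0222 and 0.0107 over 5 EtOH and TAM pairs. Such values from few peaks per gene and small groups cannot show whether the libraries were paired, and the main tests treated them as unpaired. With the replicate number as a block, whose 32 arrangements allow no p below 0.0625, 0 members and 0 genes were called, and the log2 differences of all 10 genes stayed above 0.

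When 1 library was left out, 6 to 8 members and 8348 to 9549 genes were called (fewer arrangements remain), 4 to 5 members had a promoter peak in every library, 46 to 57 sites were found, 18 to 26 of them called in EtOH, and the share difference was −0.175 to −0.116. DUSP5 lost its call in 10 and SPRY2 in 9 of these 11 fits, and SPRED1 gained one in 1.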
